A study of Mus musculus with 16 samples.

Results

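The genes described are 49 named cell cycle genes, chosen by symbol and each read from its single-symbol probe set with the highest mean over all arrays. Of these, 48 had such a probe set, and 46 were bright enough to be tested, among 14410 tested genes of 17097 with a single-symbol probe set. Ccnb1, which encodes cyclin B1, had no probe set that names it alone. Ccne2, encoding cyclin E2, and Cdc6, which loads the replicative helicase, averaged 2.70 and 3.64 on the log2 scale, below the filter at 3.67, and were not tested. Kif23, a kinesin of cytokinesis, averaged 3.69 and just passed.

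Total RNA of FACS-sorted luminal cells of the mouse mammary gland was profiled on 16 Affymetrix arrays, 4 in each of 4 genotype groups. The p38α-lox PyMT group (p38a-lox with MMTV-Cre and MMTV-PyMT) and the PyMT group (MMTV-Cre with MMTV-PyMT) came from animals of 6 weeks. The p38α-lox group (p38a-lox with MMTV-Cre) and the MMTV-Cre group came from animals of 9 weeks. Every group therefore carried MMTV-Cre, a Cre recombinase under a viral promoter active in mammary epithelium, and p38α-lox adds a floxed allele of Mapk14, the gene of the stress kinase p38α. PyMT, the polyoma middle T oncogene, was driven by the same kind of promoter, and all arrays with it were from younger animals, so its effect and that of age cannot be told apart. The labels do not say that each array is a separate animal, so p-values measure the spread between these samples, and the number of arrays limits the precision.

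Progression through the cell cycle starts when D-type cyclins with Cdk4 or Cdk6, and then E-type cyclins with Cdk2, inactivate the retinoblastoma protein Rb1 and release E2F factors, which switch on replication genes. Later, factors such as Mybl2 and Foxm1, acting with a complex that binds CHR elements in promoters, switch on the genes of mitosis. The inhibitors p21 (Cdkn1a), p27 (Cdkn1b) and p18 (Cdkn2c) restrain the kinases, and p38α is known in other cells to slow the cycle. RNA of the S, G2 and M phase genes is abundant in dividing cells and scarce in resting ones. In a bulk sample fewer dividing cells and less of these RNAs per cell cannot be told apart.

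Promoters of members are shown because most of the 36 tested members of S to M phase varied together across the arrays, as did the G1 kinase Cdk4, whereas the cyclins of G1 and Cdk6 did not. RefSeq windows of 250 bases before a listed start of the gene (GRCm38.p6) were matched for 38 of the 48 members. For some members, such as Cdc6, Cdk6, E2f1 and Aurka, that window lies inside the full span of the gene. A gene with several windows was counted where any of them held the match. Both strands were searched for CHR elements (TTTGAA or TTTAAA), for CCAAT, and for E2F sites (TTTGGCGC, TTTCCCGC, TTTCGCGC, TTTGCCGC, TTGGCGGG or TTCCCGCC). Of 30 matched S to M phase members, 46.7% held a CHR element, 76.7% a CCAAT and 16.7% an E2F site. Over all 27025 genes of the table the shares were 28.1%, 37.5% and 4.49%. A CHR element together with a CCAAT was found in 43.3% of the 30 members, against 11.2% of all genes, and in 14.3% of 7 matched G1 and inhibitor members. Some of the E2F letters overlap one another, and TTTAAA reads the same on both strands. A match to these letters describes the window and is not evidence of binding. The windows below, written 5′ to 3′ on the strand of the gene with every match in capitals, are those of Cdk1, Cdc20 and Birc5, among the members most alike across arrays, of Mcm6, a replication gene, and of Ccne1, the member least like the others. They lie at chr10:69352913-69353162 (minus strand), chr4:118437344-118437593 (minus), chr11:117848987-117849236 (plus), chr1:128359706-128359955 (minus) and chr7:38107491-38107740 (minus).
Cdk1: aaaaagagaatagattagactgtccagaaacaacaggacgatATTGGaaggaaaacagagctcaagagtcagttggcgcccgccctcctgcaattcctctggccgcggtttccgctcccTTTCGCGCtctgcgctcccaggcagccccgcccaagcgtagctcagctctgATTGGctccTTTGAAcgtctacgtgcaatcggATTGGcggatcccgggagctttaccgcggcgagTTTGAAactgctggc
Cdc20: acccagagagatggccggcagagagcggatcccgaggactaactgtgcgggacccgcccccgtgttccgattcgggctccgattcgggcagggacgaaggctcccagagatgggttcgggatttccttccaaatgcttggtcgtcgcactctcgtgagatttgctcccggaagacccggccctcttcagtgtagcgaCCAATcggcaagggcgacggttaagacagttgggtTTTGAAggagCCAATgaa
Birc5: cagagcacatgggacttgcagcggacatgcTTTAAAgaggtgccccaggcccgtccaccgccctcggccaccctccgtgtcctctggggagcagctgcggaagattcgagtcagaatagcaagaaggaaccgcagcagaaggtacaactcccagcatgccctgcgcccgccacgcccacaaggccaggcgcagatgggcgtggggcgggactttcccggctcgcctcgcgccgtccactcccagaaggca
Mcm6: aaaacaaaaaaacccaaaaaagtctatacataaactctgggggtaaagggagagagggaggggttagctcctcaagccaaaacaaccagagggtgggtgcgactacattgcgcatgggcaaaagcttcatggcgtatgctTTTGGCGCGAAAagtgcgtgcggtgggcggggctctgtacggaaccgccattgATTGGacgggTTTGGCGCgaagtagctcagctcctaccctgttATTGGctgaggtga
Ccne1: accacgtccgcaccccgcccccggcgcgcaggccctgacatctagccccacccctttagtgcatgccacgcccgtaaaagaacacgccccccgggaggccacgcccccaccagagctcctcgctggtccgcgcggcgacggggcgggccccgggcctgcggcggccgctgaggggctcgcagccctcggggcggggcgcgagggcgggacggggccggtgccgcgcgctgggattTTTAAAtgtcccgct
The Cdk1 window holds all 3 kinds of match, that of Cdc20 a CHR element with a CCAAT on either side, and that of Mcm6 the E2F and CCAAT letters without a CHR element. Those of Birc5 and of Ccne1 each hold a CHR element without CCAAT or E2F letters, although the 2 genes differ in their likeness to the others. In that of Mcm6, 2 of the E2F matches overlap.

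Array medians lay between 4.63 and 4.88. The luminal keratins Krt8 (12.14 to 12.54) and Krt18 (11.91 to 12.28) and the epithelial adhesion protein Epcam (10.93 to 11.99) were high on all 16 arrays. Ptprc (2.71 to 3.14) and Cd3e (3.03 to 3.51), which define leukocytes and T cells, lay below the filter, whereas the other 5 immune markers were above it, and the macrophage marker Cd68 read 8.70 to 9.44 in p38α-lox PyMT, 7.21 to 8.93 in PyMT, 5.38 to 7.45 in p38α-lox and 5.94 to 8.95 in MMTV-Cre arrays. The mean of the 7 immune markers was 4.65 to 4.84 in p38α-lox PyMT, 4.67 to 4.78 in PyMT, 4.10 to 4.71 in p38α-lox and 4.24 to 4.67 in MMTV-Cre arrays. That of 7 fibroblast genes, of which 4 passed the filter, was 4.49 to 5.85, 4.65 to 5.85, 4.58 to 4.82 and 5.02 to 5.69 in the same order of groups, with single genes as high as 9.10 (Col3a1) and 9.82 (Dcn). The mean of 8 basal and myoepithelial genes was 7.33 to 8.14 in p38α-lox PyMT arrays, 7.12 to 8.0 in PyMT arrays, 5.37 to 7.23 in p38α-lox arrays and 5.76 to 7.57 in MMTV-Cre arrays. Over all arrays Krt5 spanned 6.30 to 11.52 and Acta2 6.72 to 10.38. For 7 genes of hormone-sensing luminal cells the mean was 5.86 to 7.87, 6.06 to 7.02, 6.33 to 6.44 and 5.91 to 8.96 in the same order of groups. The part of these lists in the differences between groups was not tested. The numbers in the sample titles fall into a lower range (9 arrays) and a higher range (7 arrays), and no source used here says what the numbers stand for. Replicates 1 and 2 of every group lie in the lower range and replicates 3 and 4 in the higher one, except that PyMT replicate 4 is in the lower range.

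Mapk14, the targeted gene, was not lower in the arrays labelled p38α-lox as a whole. It read 6.79, 6.37, 7.91 and 8.16 in arrays labelled p38α-lox, against 7.11, 7.43, 5.56 and 6.02 in arrays labelled MMTV-Cre. In replicates 1 and 2 it was thus lower in the arrays labelled p38α-lox. In replicates 3 and 4 it was higher, which on the probe set used goes against the labels of those 4 arrays. With PyMT it read 7.09, 7.25, 7.34 and 7.24 in arrays labelled p38α-lox PyMT, against 7.17, 7.12, 7.64 and 6.88 in PyMT arrays, and the groups overlapped. Without PyMT the other Mapk14 probe sets had higher means in arrays labelled p38α-lox by 0.295, 0.073, 0.363, 0.378 and 0.414, against 0.778. Their correlations with the one used were 0.741, −0.321, 0.633, −0.145 and 0.034, so not all of them followed it across arrays. No source used here says whether the Mapk14 probes lie in the floxed part. Groups are called by their labels throughout, and each comparison of the members is also given for the lower title range, which leaves those 4 arrays out.

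The dominant pattern among the members was a difference between single arrays that ran through most S to M phase genes and cut across the genotype labels. The mean of the 36 S to M phase members was 6.27, 6.92, 6.40 and 7.16 in p38α-lox PyMT arrays. It was 6.55, 7.08, 6.11 and 6.36 in PyMT arrays. It was 6.01, 5.55, 6.80 and 7.39 in p38α-lox arrays, and 7.02, 6.90, 5.65 and 6.46 in MMTV-Cre arrays. The highest and the lowest of all 16 arrays were both labelled p38α-lox, replicate 4 and replicate 2, and the 4 groups overlapped throughout. Replicate 2 of p38α-lox also had the highest median over all probe sets (4.88). Together with PyMT replicate 4, it had the lowest median correlation with the other arrays (0.934). The part of array quality in its low mean was not tested. The map of the members by array shows the same columns light or dark for most genes from the Mcm genes down to Top2a. In p38α-lox replicate 2 the exceptions were E2f1 and Cenpe, which had their highest value of all arrays there (5.75 and 5.41), and E2f2 and Mybl2.

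**Figure D1:**
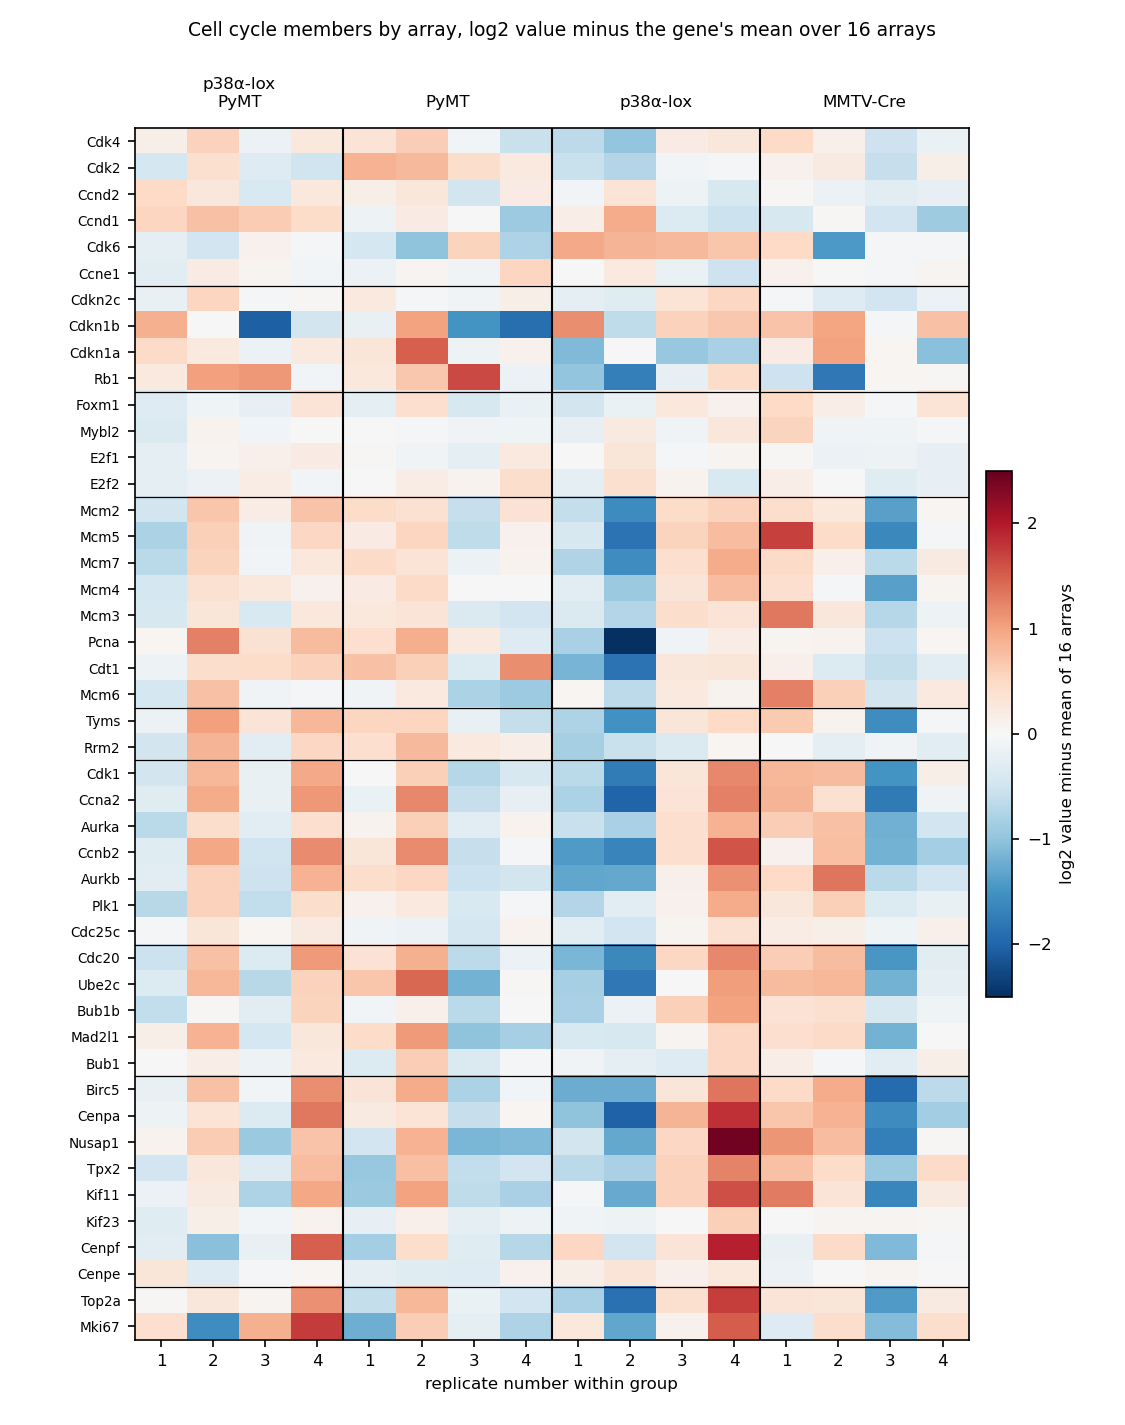
Log2 value minus the gene's mean over 16 arrays (colour) for the 46 tested members (lines, grouped by role with black lines between) in each array (columns, by group and replicate). Of the 36 S to M phase members, 32 lie below their own mean in p38α-lox replicate 2 and 34 in MMTV-Cre replicate 3, while 35 lie above it in p38α-lox replicate 4.

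Replicates with the same genotype label differed far more in these genes than in most others. The median SD over 4 arrays of the 36 S to M phase members was 0.542 in p38α-lox PyMT, 0.496 in PyMT, 0.998 in p38α-lox and 0.763 in MMTV-Cre arrays. Over all tested genes it was 0.213, 0.295, 0.331 and 0.244 in the same groups. Among role groups in p38α-lox arrays it was 1.19 for the cyclins and kinases of S, G2 and M, 1.10 for spindle and centromere genes, 1.04 for replication genes and 0.339 for the G1 cyclins and kinases. The 4 cell cycle transcription factors (E2f1, E2f2, Foxm1 and Mybl2) had 0.275 there, below that of all genes.

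Cdk1, the kinase that starts mitosis, read 7.57, 8.85, 7.84 and 8.97 in p38α-lox PyMT arrays and 8.03, 8.63, 7.32 and 7.63 in PyMT arrays. It read 7.36, 6.29, 8.34 and 9.24 in p38α-lox arrays and 8.85, 8.83, 6.54 and 8.18 in MMTV-Cre arrays. The lowest and the highest of the 16 arrays were both p38α-lox arrays, and MMTV-Cre arrays spanned 6.54 to 8.85. The marker of cycling cells Mki67 read 6.84, 4.87, 7.30 and 8.17 in p38α-lox PyMT arrays and 5.19, 7.04, 6.20 and 5.65 in PyMT arrays. It read 6.67, 5.12, 6.52 and 7.93 in p38α-lox arrays and 6.10, 6.85, 5.34 and 6.86 in MMTV-Cre arrays. Mki67 parted from most S to M phase members in p38α-lox PyMT replicate 2, its lowest array of all. There the mean of the 36 was among the higher ones, and 5 of the 36, Mki67 among them, lay below their own mean. Top2a, the topoisomerase that untangles replicated chromosomes, read 6.76, 7.0, 6.79 and 7.86 in p38α-lox PyMT arrays and 6.13, 7.56, 6.55 and 6.24 in PyMT arrays. It read 5.92, 4.86, 7.13 and 8.46 in p38α-lox arrays and 7.04, 7.03, 5.31 and 6.95 in MMTV-Cre arrays, and the groups overlapped.

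**Figure D2:**
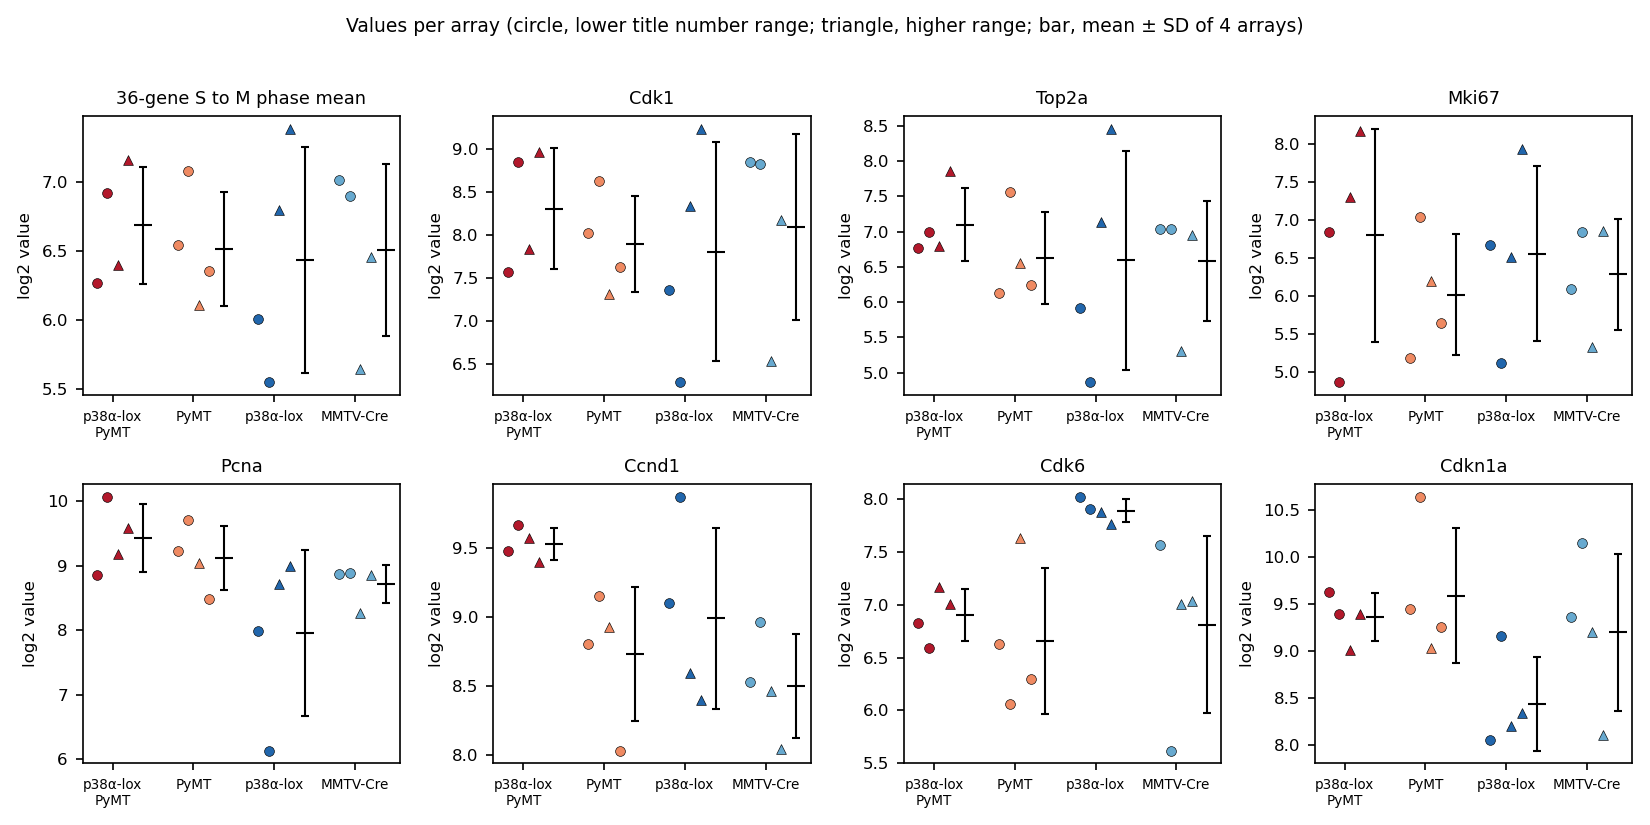
Log2 value per array for the mean of the 36 S to M phase members and for 7 members, with each group's mean ± SD of 4 arrays (bars) and the title number range by symbol. Cdk6 in p38α-lox arrays (7.76 to 8.02) lies above all other groups, and Ccnd1 in p38α-lox PyMT arrays (9.40 to 9.67) above PyMT and MMTV-Cre arrays. The S to M phase genes drawn, Cdk1, Top2a, Mki67 and Pcna, overlap in all groups.

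Likeness across the arrays was measured as the Pearson correlation of each S to M phase member with the mean of the other 35, over 16 arrays that share their normalization, and is a description without a test. Its median was 0.833 (Spearman 0.846), 0.812 without the 2 arrays farthest from the median and 0.872 after the group means were removed. Cdk1 (0.982), Cdc20, which activates the anaphase-promoting complex (0.982), and the S phase cyclin Ccna2 (0.981) were closest. Birc5, the survivin subunit of the chromosomal passenger complex, had 0.947 and the centromeric histone Cenpa 0.935. At the other end stood the kinetochore motor Cenpe (−0.275) and E2f2 (−0.148), while E2f1 had 0.028. Outside the 36, the G1 genes differed among themselves, with Cdk4 at 0.840, Cdk2 at 0.461, Ccnd2 at 0.022, Ccnd1 at −0.139, Cdk6 at −0.275 and Ccne1 at −0.299. Of the 36 members, 19 had a correlation above 0.8 (52.8%), as had 30 of 110 other cell cycle genes (27.3%) and 39 of 14254 genes in neither list (0.274%).

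Among genes in neither list, those most like the mean of the 36 were Iqgap3 (0.907), Pclaf, a partner of Pcna (0.898), Cit, a kinase of cytokinesis (0.896), Nrm (0.894), Cdkn3 (0.885), Parpbp (0.885), H3c14 (0.882), Selenoh (0.880), the centromere protein Cenpp (0.876) and Lsm3 (0.876). The most opposite with an established name were Itsn2 (−0.818), Pdilt (−0.814), Zbtb46 (−0.793), H2bc18 (−0.786) and Zfp608 (−0.783). Of the other cell cycle genes, Racgap1 (0.940) and the condensin subunit Ncapd2 (0.939) were closest.

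Arrays labelled p38α-lox were set against those labelled MMTV-Cre to ask how loss of p38α affects luminal cells in the absence of the oncogene. No member passed the test (0 of 46, against 0% of all 14410 genes, limma with Benjamini-Hochberg adjustment). At an unadjusted p under 0.05 there was 1 member, Cdk6, against 4.79% of all genes. Higher estimates were found for 20 of the 46, where 50.1% of all genes had them, and the median difference was −0.07, against 0.00 over all genes. For 2 members, Cdk6 and Cenpe, all p38α-lox arrays lay above all MMTV-Cre arrays, and groups did not overlap for 2.1% of all genes in either direction.

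Among the G1 cyclins and kinases 3 of 6 had higher estimates. Cdk6, a partner of the D cyclins, read 8.02, 7.91, 7.88 and 7.76 in arrays labelled p38α-lox, against 7.57, 5.62, 7.01 and 7.04 in those labelled MMTV-Cre. All p38α-lox arrays were higher, by 1.08 ± 0.365 (SE) on average, but the limma adjusted p was 0.833. Without MMTV-Cre replicate 2 the difference of Cdk6 was 0.69. Its 2 other probe sets differed by 0.75 and 0.87 in the same direction. Ccnd1, cyclin D1, differed by 0.49 ± 0.301 (limma adjusted p = 0.999), and its values of 9.10, 9.87, 8.59 and 8.40 in p38α-lox arrays overlapped 8.53, 8.96, 8.46 and 8.04 in MMTV-Cre arrays.

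Of the inhibitors, Cdkn1a read 8.05, 9.16, 8.20 and 8.34 in arrays labelled p38α-lox, against 9.36, 10.15, 9.20 and 8.11 in those labelled MMTV-Cre. The difference was −0.77 ± 0.403 (limma adjusted p = 0.999), and the groups overlapped through MMTV-Cre replicate 4. Cdkn1b and Rb1 had differences of −0.16 ± 0.643 and −0.06 ± 0.515, whereas Cdkn2c had a higher estimate, at 0.32 ± 0.201. Among the transcription factors E2f1 was highest (0.20 ± 0.134) and Foxm1, which drives mitotic genes, lowest (−0.29 ± 0.211).

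Of 8 replication genes, 7 had lower estimates, with the polymerase clamp Pcna lowest at −0.76 ± 0.488, and both nucleotide synthesis enzymes, Rrm2 and Tyms, had lower estimates too. Of 8 spindle and centromere genes, 7 had higher estimates, led by the kinetochore protein Cenpf (0.79 ± 0.551), whose other probe sets differed by 0.125 and −0.03. Cenpe read 5.25, 5.41, 5.22 and 5.36 in arrays labelled p38α-lox, against 4.96, 5.10, 5.16 and 5.08 in those labelled MMTV-Cre, a small difference of 0.24 ± 0.138 (limma adjusted p = 0.999). Cenpa and the spindle microtubule protein Nusap1, the members with the widest spread among p38α-lox arrays (SD 1.75 and 1.59), had differences of 0.13 ± 0.731 and 0.25 ± 0.755. Cdk1 was at −0.29 ± 0.610 and Top2a at 0.01 ± 0.628.

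Within the title ranges, with 2 arrays against 2, the same comparison gave opposite values. In the lower range 40 of 46 members had lower and 6 had higher estimates in arrays labelled p38α-lox (median −1.04), where 47.9% of all genes had higher ones (median −0.02). In the higher range 43 of 46 had higher estimates (median 0.81), as had 51.8% of all genes (median 0.01). A lower estimate in the lower range and a higher one in the higher range were found for 39 members (84.8%), against 34.2% of all genes. For 24 members (52.2%) both arrays labelled p38α-lox lay below both MMTV-Cre arrays in the lower range and above both in the higher one, against 13.1% of all genes. No member was called within either range, where 0.187% (lower) and 0.00694% (higher) of all genes were, but 25 members had an unadjusted p under 0.05 in the lower range, against 17.3% of all genes, and 17 in the higher range, against 8.99%. These are the arrays in which the Mapk14 probe set used showed the same crossing, with log2 differences of −0.69 and 2.24.

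**Figure D3:**
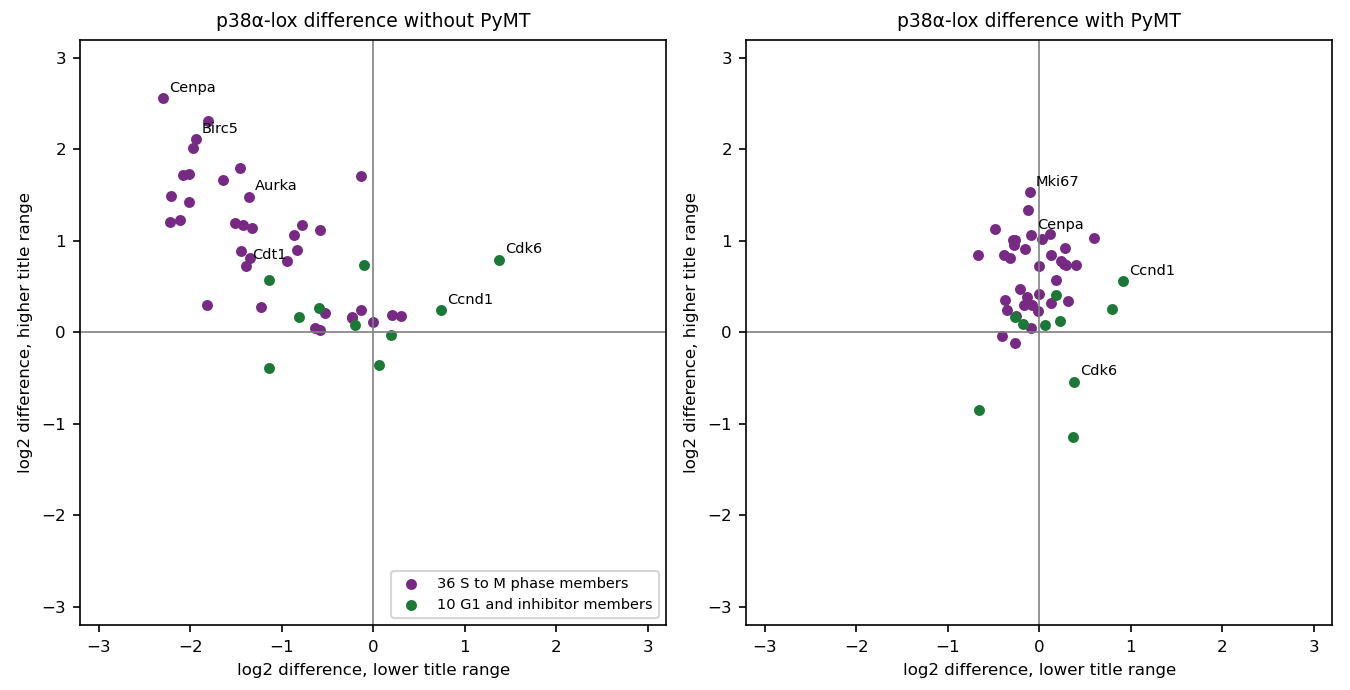
Log2 difference of arrays labelled p38α-lox from their controls in the lower (x axis) and the higher (y axis) title range for 46 members, without PyMT (left) and with PyMT (right). Without PyMT, 39 members lie in the upper left quadrant, led by Cenpa (−2.30 and 2.56), while Cdk6 (1.37 and 0.80) and Ccnd1 (0.74 and 0.24) are higher in both ranges.

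The difference between the ranges itself was called for 4 members, against 0.715% of all genes (103 of 14410, limma), and 28 members had an unadjusted p under 0.05, against 18.9% of all genes. Cenpa read 6.17 and 5.16 in p38α-lox arrays of the lower range, against 7.88 and 8.05 in MMTV-Cre arrays. In the higher range it read 8.02 and 9.01 in p38α-lox arrays, against 5.60 and 6.30 in MMTV-Cre arrays. The groups stand apart in both ranges, in opposite directions, and the change of the difference was 4.87 ± 0.745 (limma adjusted p = 0.0359). Over the 8 alternatives other than leaving out 1 array, the change for Cenpa ranged from 2.57 to 5.03. A second Cenpa probe set followed the one used only in part (correlation 0.486). Birc5 read 5.60, 5.61, 7.16 and 8.18 in p38α-lox arrays, against 7.33, 7.77, 4.92 and 6.20 in MMTV-Cre arrays. The mitotic kinase Aurka read 6.37, 6.11, 7.34 and 7.80 in p38α-lox arrays, against 7.54, 7.65, 5.73 and 6.45 in MMTV-Cre arrays. Cdt1, a licensing factor of replication origins, read 6.55, 5.87, 7.99 and 8.02 in p38α-lox arrays, against 7.83, 7.37, 7.11 and 7.44 in MMTV-Cre arrays. For these 3 genes the changes were 4.05, 2.84 and 2.12 (limma adjusted p = 0.048 each). The calls depended on single arrays, since 0 members were called without p38α-lox replicate 2, 3 or 4, without MMTV-Cre replicate 2, 3 or 4, or without PyMT replicate 1.

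By role, all 8 replication genes, both nucleotide synthesis enzymes, all 7 cyclins and kinases of S, G2 and M and all 5 checkpoint genes had lower estimates in the lower range and higher ones in the higher range. The medians were −1.97 and 1.43 for the cyclins and kinases and −1.41 and 0.85 for the replication genes. Of the G1 group only Cdk2 and Cdk4 crossed in this direction, with Cdk4 at −1.14 and 0.575. The title ranges were looked at because earlier results of these data showed them to matter, and whether they or the labels account for the crossing was not tested.

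The comparison of p38α-lox PyMT with PyMT asks the same question in the presence of the oncogene. Again 0 of 46 members passed (0% of all genes, limma). At an unadjusted p under 0.05 there were 2, Ccnd1 and Cdk2, against 3.58% of all genes. Higher estimates were found for 33 members, where 41.8% of all genes had them, and the median difference was 0.12, against −0.04 over all genes. Without PyMT replicate 3 that median was −0.01. Ccnd1 was the 1 member whose groups did not overlap, against 2.55% of all genes.

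Ccnd1 read 9.48, 9.67, 9.57 and 9.40 in arrays labelled p38α-lox PyMT, against 8.80, 9.15, 8.93 and 8.03 in PyMT arrays, a difference of 0.80 ± 0.301 (limma adjusted p = 0.999). Its 2 other probe sets differed by 0.82 and 0.66. Cdk2, the partner of cyclins E and A, read 5.92, 6.75, 6.02 and 5.85 in arrays labelled p38α-lox PyMT, against 7.21, 7.17, 6.79 and 6.59 in PyMT arrays. All of them but replicate 2 lay below every PyMT array, and the difference was −0.80 ± 0.245 (limma adjusted p = 0.999). These 2 G1 genes had estimates of opposite sign, and both kept that sign in each title range, Ccnd1 at 0.92 and 0.56 and Cdk2 at −0.65 and −0.85 in the lower and the higher range.

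Further down the cycle no estimate passed the test. All 8 spindle and centromere genes and both markers had higher estimates, with Mki67 at 0.78 ± 0.675, Top2a at 0.48 ± 0.628 and Nusap1 at 0.59 ± 0.755. A second, dim Nusap1 probe set differed by 0.07. Cdc25c, the phosphatase that activates Cdk1, read 5.70, 6.03, 5.79 and 5.96 in arrays labelled p38α-lox PyMT, against 5.65, 5.58, 5.30 and 5.82 in PyMT arrays (0.285 ± 0.174). E2f2 read 5.03, 5.12, 5.45 and 5.21 in arrays labelled p38α-lox PyMT, against 5.29, 5.45, 5.36 and 5.71 in PyMT arrays (−0.25 ± 0.176). For both genes the groups overlapped. Cdkn1a differed by −0.235 ± 0.403, and by 0.07 on its second probe set. The other 2 probe sets of Top2a, which did not follow the first across arrays (correlations −0.192 and −0.132), differed by −0.04 and 0.06. The members' median was −0.085 in the lower title range and 0.51 in the higher one, where PyMT has a single array, and 0 members and 0% of all genes were called by limma for the change between ranges.

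**Figure D4:**
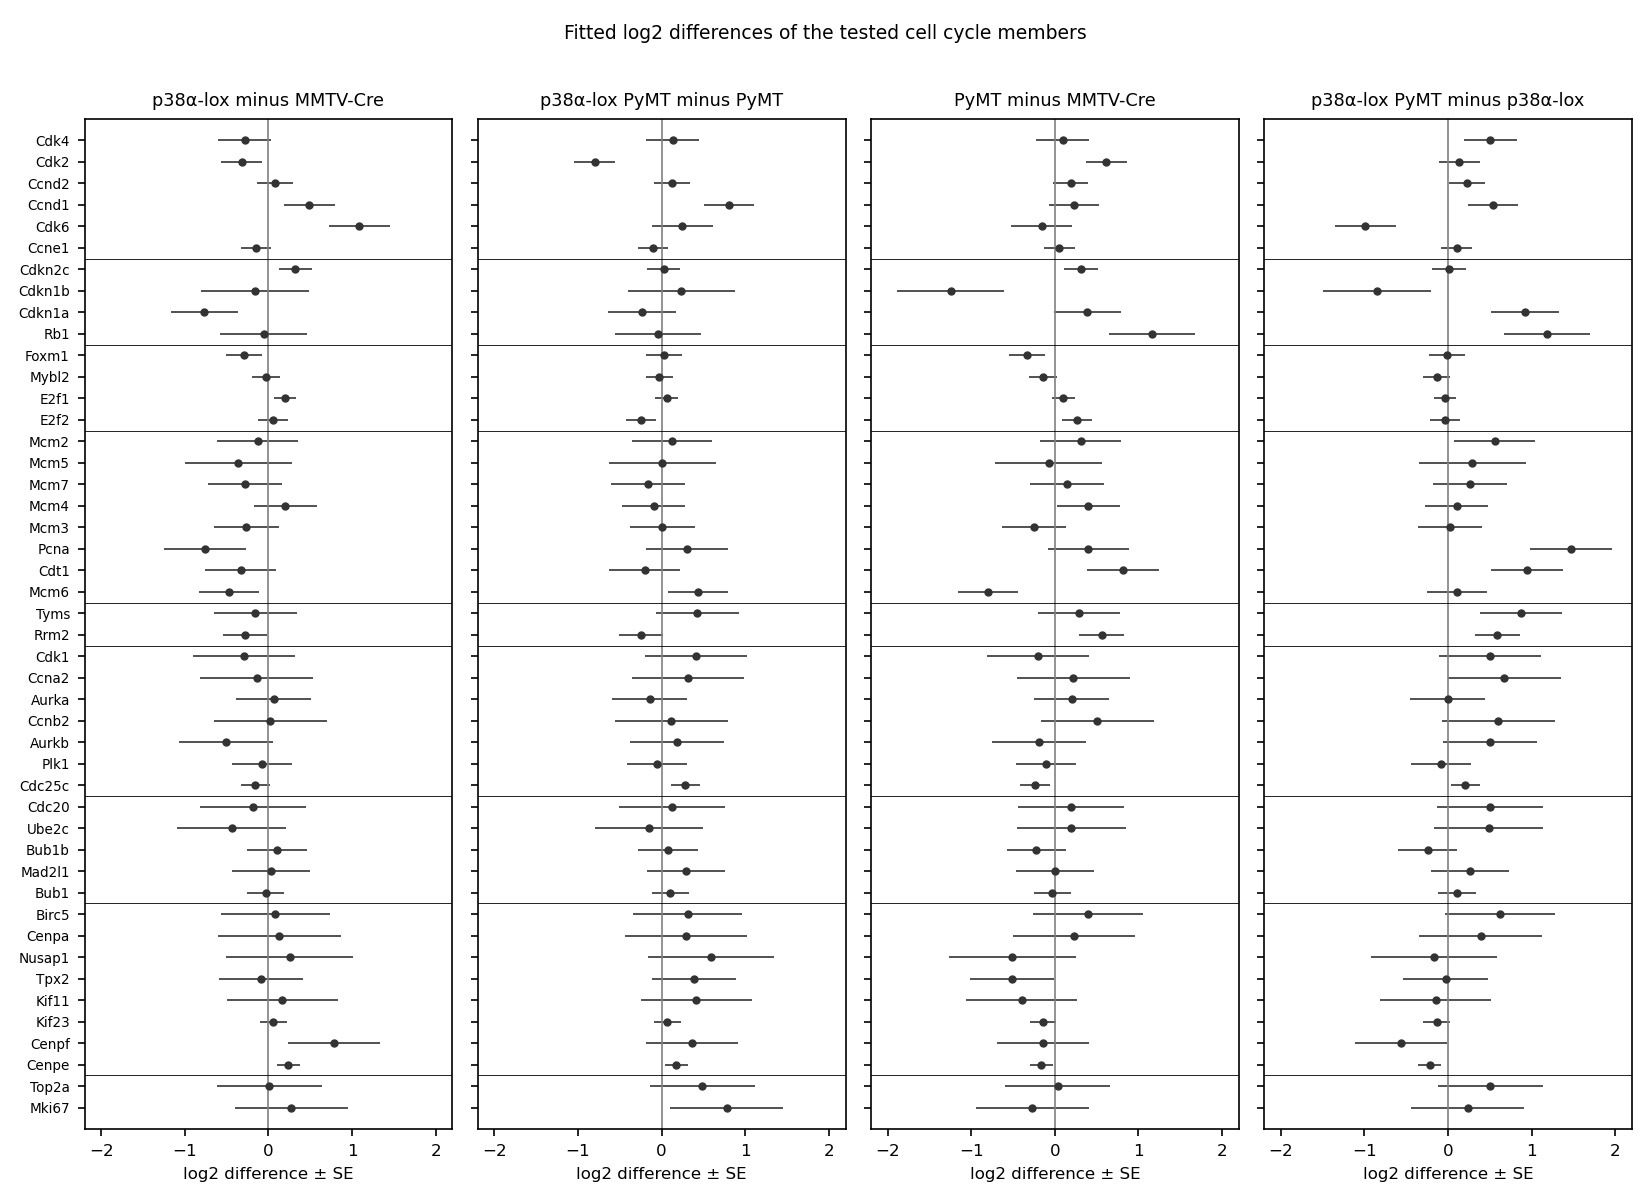
Fitted log2 difference ± SE (x axis, limma over 16 arrays) of the 46 tested members (lines, grouped by role) in 4 comparisons. No member passed an adjusted p of 0.05, and the widest bars belong to S to M phase genes such as Nusap1 (SE 0.755) and Mki67 (SE 0.675).

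The comparison of PyMT with MMTV-Cre asks what the oncogene does to luminal cells, with the difference in age inside it. Of all genes 1.26% were called by limma and of the members 0 of 46. At an unadjusted p under 0.05 there were 3 members (Cdk2, Rb1 and Mcm6), or 6.52%, against 13.8% of all genes. Higher estimates were found for 26 members, where 55% of all genes had them, and the median difference was 0.07, against 0.03 over all genes. Over the S to M phase members the mean level was 6.52 ± 0.413 in PyMT and 6.51 ± 0.621 in MMTV-Cre arrays (SD, n = 4 each).

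Cdk2 read 7.21, 7.17, 6.79 and 6.59 in PyMT arrays, against 6.46, 6.57, 5.78 and 6.49 in MMTV-Cre arrays, so that all PyMT arrays were higher (0.61 ± 0.245, limma adjusted p = 0.265). Rrm2, a subunit of ribonucleotide reductase, also did not overlap, with 6.20, 6.59, 6.01 and 5.95 in PyMT arrays, against 5.78, 5.55, 5.69 and 5.49 in MMTV-Cre arrays (0.56 ± 0.267, limma adjusted p = 0.378). Of all genes 7.09% had groups that did not overlap. Rb1 read 8.35, 8.76, 9.73 and 7.93 in PyMT arrays, against 7.56, 6.29, 8.14 and 8.11 in MMTV-Cre arrays (1.16 ± 0.515, limma adjusted p = 0.33). A second, dim Rb1 probe set differed by 0.23. Mcm6, a subunit of the replicative helicase, read 6.54, 6.87, 5.84 and 5.72 in PyMT arrays, against 7.89, 7.22, 6.18 and 6.88 in MMTV-Cre arrays (−0.80 ± 0.361, limma adjusted p = 0.341). Cdkn1b had the lowest estimate of the members, −1.25 ± 0.643 (limma adjusted p = 0.425), and its second probe set −1.71. In the lower title range the members' median was −0.22 and in the higher range, with 1 PyMT array, 0.09. Rb1 (1.42 and 1.60) and Mcm6 (−1.18 and −0.69) kept their direction in both ranges.

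The comparison of p38α-lox PyMT with p38α-lox repeats this among animals labelled with the floxed allele. Of all genes 0.777% were called by limma and of the members 0 of 46. At an unadjusted p under 0.05 there were 6 members (Pcna, Cdk6, Rb1, Cdkn1a, Rrm2 and Cdt1), or 13%, close to the 12.2% of all genes. Higher estimates were found for 31 members, where 46.5% of all genes had them, and the median difference was 0.22, against −0.02 over all genes. Without p38α-lox replicate 2 that median was 0.00. The values of the p38α-lox group also enter the first comparison, so the 2 are not independent.

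Pcna read 8.85, 10.07, 9.19 and 9.59 in p38α-lox PyMT arrays, against 7.99, 6.13, 8.72 and 9.00 in p38α-lox arrays (1.47 ± 0.488, limma adjusted p = 0.2). Its value in p38α-lox replicate 2 was far below the others, and without that array the difference was 0.86. Cdk6 read 6.83, 6.59, 7.17 and 7.01 in p38α-lox PyMT arrays, against 8.02, 7.91, 7.88 and 7.76 in p38α-lox arrays. All p38α-lox PyMT arrays were lower, by −0.99 ± 0.365 (limma adjusted p = 0.259), and Cdk6 was the 1 member whose groups did not overlap, against 8.16% of all genes. When only the arrays of these 2 groups were fitted, its limma adjusted p was 0.0243. Its other 2 probe sets differed by −0.89 and −0.79.

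Among the inhibitors Rb1 and Cdkn1a had higher estimates and Cdkn1b a lower one. Rb1 read 8.32, 9.11, 9.16 and 8.01 in p38α-lox PyMT arrays, against 7.09, 6.37, 7.87 and 8.54 in p38α-lox arrays (1.18 ± 0.515, limma adjusted p = 0.363). Its second, dim probe set differed by −0.12, in the other direction. Cdkn1a read 9.63, 9.40, 9.01 and 9.39 in p38α-lox PyMT arrays, against 8.05, 9.16, 8.20 and 8.34 in p38α-lox arrays (0.92 ± 0.403, limma adjusted p = 0.363). Each overlapped through 1 p38α-lox array. All 8 replication genes and both nucleotide synthesis enzymes had higher estimates, while 6 of 8 spindle and centromere genes had lower ones. Cdt1 was at 0.94 ± 0.428 (0.76 and, for a dim one, −0.06 on its other probe sets), Tyms at 0.87 ± 0.495 and Rrm2 at 0.59 ± 0.267. The other probe sets of Tyms, which did not follow the first across arrays (correlations −0.517 to −0.018), differed by −0.201, 0.296, 0.065 and −0.188. In the lower title range the members' median was 0.63 and in the higher range −0.36, so the direction of this comparison also crossed. Cdk6 had a lower estimate in both, at −1.25 and −0.73, and Pcna a higher one, at 2.40 and 0.54.

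The difference between the p38α-lox effects with and without PyMT (the interaction) was called for 0 members and 0% of all genes by limma, with 0 members and 2.82% of all genes at an unadjusted p under 0.05. The members' median was 0.24, against −0.04 over all genes, with 36 of 46 estimates above 0, where 44.8% of all genes had them. The smallest p-values belonged to Cdc25c (0.44 ± 0.246), Mcm6 (0.91 ± 0.511), Cdk6 (−0.84 ± 0.517) and Pcna (1.07 ± 0.690), each with a limma adjusted p of 0.992. Without p38α-lox replicate 2 the members' median was −0.07. Within the lower title range it was 0.93, with 39 of 46 estimates above 0, where 47.9% of all genes had them, and in the higher range, with 1 PyMT array, it was −0.32. In the lower range 0 members and 0% of all genes were called by limma, and 11 members had an unadjusted p under 0.05, against 9.86% of all genes.

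A further list of 125 cell cycle genes, of which 110 were tested, had 0 called genes in each of the 5 comparisons by limma, with 2, 2, 7, 6 and 0 at an unadjusted p under 0.05 in the order given above. These are 1.82%, 1.82%, 6.36%, 5.45% and 0% of the list, against 4.79%, 3.58%, 13.8%, 12.2% and 2.82% of all genes. The list shared the crossing between title ranges without PyMT, with 77 of 110 genes (70%) against 34.2% of all genes. For 42 (38.2%) the arrays stood apart in both ranges in these directions, against 13.1%. The change between ranges was called by limma for 3 of the 110, against 0.715% of all genes. These calls too depended on single arrays, since 0 of all genes were called without p38α-lox replicate 2. Without PyMT the antiproliferative gene Btg2 was lowest of the list in p38α-lox, at −0.79 ± 0.274 (limma adjusted p = 0.851), and the stress gene Gadd45b highest at 0.73 ± 0.308, with Lin9, a subunit of the complex that binds CHR elements, at −0.66 ± 0.322. With PyMT the smallest p-values were those of E2f5 (0.85 ± 0.369), the polymerase subunit Pola1 (0.78 ± 0.350) and the pocket protein Rbl1 (0.41 ± 0.206), all with higher estimates in arrays labelled p38α-lox PyMT. Between PyMT and MMTV-Cre they were those of E2f6 (0.50 ± 0.156), Gadd45a (0.93 ± 0.298) and the chromatin protein Hmgb2 (−1.40 ± 0.453). Between p38α-lox PyMT and p38α-lox, Gadd45a, which is induced by DNA damage, averaged 11.21 in p38α-lox PyMT and 9.87 in p38α-lox arrays and came closest to the threshold of any gene of either list (1.34 ± 0.298, limma adjusted p = 0.0512), followed by E2f6 (0.44 ± 0.156) and Cks1b, a partner of the cyclin-dependent kinases (0.86 ± 0.329). For the interaction they were E2f5 (1.07 ± 0.522), Gins2 of the replicative helicase (0.85 ± 0.477) and the microtubule protein Ckap5 (1.13 ± 0.635).

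The S to M phase mean was also set beside the targeted gene. Among the 8 arrays without PyMT, the 2 with the highest Mapk14 (p38α-lox replicates 4 and 3, at 8.16 and 7.91) had means of 7.39 and 6.80, and the array with the lowest (MMTV-Cre replicate 3, at 5.56) had 5.65. The lowest mean of all, 5.55, was in p38α-lox replicate 2, with Mapk14 at 6.37. MMTV-Cre replicates 1 and 2 had means of 7.02 and 6.90, with Mapk14 at 7.11 and 7.43. The mean was 6.46 in MMTV-Cre replicate 4, with Mapk14 at 6.02, and 6.01 in p38α-lox replicate 1, with Mapk14 at 6.79. The arrays with PyMT spanned 6.88 to 7.64 for Mapk14 and 6.11 to 7.16 for the mean. These values share 16 arrays and their normalization and are given without a test.

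**Figure D5:**
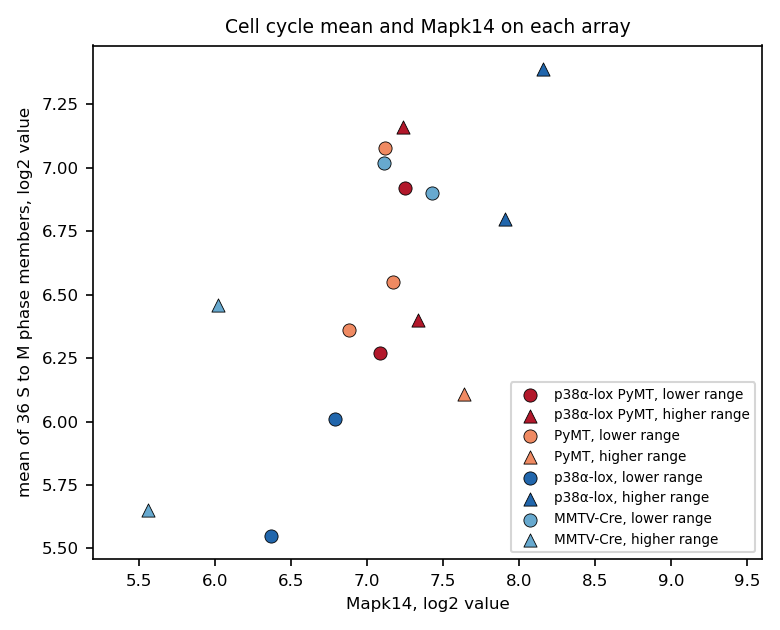
Mean of the 36 S to M phase members (y axis, log2) against Mapk14 (x axis, log2) on each of 16 arrays, by group (colour) and title range (symbol). The arrays without PyMT spread over Mapk14 values of 5.56 to 8.16 with means of 5.55 to 7.39, and those with PyMT lie between 6.88 and 7.64.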

How the data were processed

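Gene expression was measured on 16 Affymetrix arrays. The values are log2 expression values per probe set, deposited by the authors in the series' value table; RMA is named in the submitters' processing notes, without a version. RMA sets all arrays to a common distribution, so a change of total RNA per cell cannot be seen, and levels of different probe sets cannot be compared. Groups were taken from the genotype labels. Of 45141 probe sets, 28898 carried 1 symbol, and each gene was read from the one with the highest mean. Genes whose mean reached the 25th percentile of the means of all probe sets, 3.67, were tested.

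Differences came from limma 3.58.1 in R 4.3.3, with 1 model over 16 arrays (12 residual and 2.83 prior degrees of freedom), two-sided, with Benjamini-Hochberg adjustment over all 14410 tested genes and calls below 0.05. Errors are the SE for differences and the SD of 4 arrays for means. The title ranges were fitted as 8 cells of group and range. The procedure was tested on simulated data. The members, lists and tests were chosen with earlier results of these data known. Named genes are Mki67, Top2a, Ccnd1, Cdkn1a and the 4 members with the smallest p in each comparison (13 members in all), the extremes of each role group, the 3 other cell cycle genes with the smallest p in each comparison, and the 10 most and 5 least alike genes; Cdk1, the genes called between title ranges and the probe set checks were added after their values were seen. Promoter windows are from RefSeq. Alternatives were other filters, probe set means, eBayes options, normalizations and sets of arrays. Ccnb1 was not analysed here.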

Additional observations from a re-analysis of the deposited data

Results flagged for a closer look

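In MMTV-Cre replicate 3 the lowest value of 4 named members lay far from the other 3 arrays of the group. Top2a read 5.31 there, with the others at 6.95 to 7.04, and Cdk2 read 5.78, with the others at 6.46 to 6.57. Cdc25c read 5.62, with the others at 5.87 to 5.92, and Pcna 8.27, with the others at 8.85 to 8.89. A gap of this size was looked for in 56 sets of 4 arrays (13 named members and the mean of 36, in 4 groups). Chance gives it in about 1 in 20 sets, so some such gaps among the 56 are likely by chance. The 4 genes were read from the same array, so they are not independent, and this is the array with the lowest Mapk14 (5.56). Without it the difference of Top2a between p38α-lox and MMTV-Cre was −0.41, against 0.01 with it.

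The p38α-lox difference without PyMT changed between the title ranges for Cenpa (by 4.867), Birc5 (4.052), Aurka (2.842) and Cdt1 (2.124), each with a lower estimate in the lower range and a higher one in the higher range. The limma adjusted p was 0.0359 for Cenpa and 0.048 for the others, and over the alternatives it ranged from 0.0235 to 0.198 for these 4 genes. The cause was not tested.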

How the results depend on the processing

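No paired analysis was possible because the labels give no replicate numbers, and those used here only name the arrays. In the 5 comparisons no alternative gave a called member, except that fitting only the arrays compared called 1 member between p38α-lox PyMT and p38α-lox (Cdk6, −0.99 with adjusted p = 0.0243, against 0.259 in the fit over all arrays, and up to 0.56 under the alternatives); a smaller set of arrays with its own spread is what differs. The median member difference with 1 array left out at a time ranged from −0.41 to 0.188 (p38α-lox without PyMT), −0.012 to 0.229 (with PyMT), −0.163 to 0.211 (PyMT without p38α-lox), −0.003 to 0.363 (with p38α-lox) and −0.069 to 0.463 (interaction). The number of members called for a change of the p38α-lox difference between title ranges was 4. It was 1 with no filter, with trend and robust eBayes and with quantile normalization again, 0 with the mean of probe sets and without the 2 arrays of lowest correlation (p38α-lox replicate 2 and PyMT replicate 4), 8 with arrays centred on their medians, 6 with only the arrays compared, and 0 to 9 with 1 array left out. Its medians kept their signs, at −1.332 to −0.876 in the lower and 0.448 to 1.014 in the higher range with 1 array left out. The near-zero difference of Top2a between p38α-lox and MMTV-Cre (0.01) turned to −0.021 with the mean of probe sets, −0.023 with quantile normalization again and −0.03 with centred arrays, and ranged from −0.613 to 0.589 with 1 array left out; that of Mki67 ranged from −0.182 to 0.751. Between p38α-lox PyMT and p38α-lox, without the 2 arrays of lowest correlation, Mki67 turned to −0.244 and Top2a to −0.072, and in the interaction Mki67 turned to −0.096 and Top2a to −0.231. With 1 array left out, signs also turned for Cdkn1a between p38α-lox PyMT and PyMT (−0.423 to 0.114), for Mki67 (−0.608 to 0.009) and Top2a (−0.391 to 0.196) between PyMT and MMTV-Cre, for Mki67 (−0.244 to 0.877) and Top2a (−0.072 to 1.131) between p38α-lox PyMT and p38α-lox, and for Top2a in the interaction (−0.105 to 1.097). None of these was called in any of the fits, and the cause was not tested. The number of arrays, and dim probe sets such as those of Kif23 and Bub1, limit what can be seen.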
